A study of Mus musculus with 22 samples.

Results

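Genes of neutrophil granules and of the calprotectin complex were followed on 22 mouse gene arrays of sorted brain microglia. The set held 8 genes, S100a8, S100a9, Camp, Ngp, Retnlg, Lcn2, Hp and Mmp9. They were taken by symbol from 19937 genes that had a probe set of their own, using for each gene the probe set with the highest mean. Each of the 8 had exactly 1 such probe set and no probe set shared with another gene. All 8 lay above the array median on at least 2 arrays and so were among the 11830 genes tested. Levels are given as log2 of the deposited intensity, and a difference of 1 on this scale is a change by a factor of 2.

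The granules of neutrophils are filled in the bone marrow, each class at its own step of maturation, under control of transcription factors of the C/EBP family. S100a8 and S100a9 are calcium-binding proteins that pair as calprotectin, the most abundant protein of the neutrophil cytosol, which withholds zinc and manganese from microbes and signals through Tlr4. Camp (cathelicidin, an antimicrobial peptide precursor), Ngp (neutrophilic granule protein), Lcn2 (lipocalin 2, which captures bacterial siderophores) and Hp (haptoglobin, which binds free haemoglobin) are stored mainly in secondary granules. Mmp9 (gelatinase B, a matrix protease) marks the tertiary granules. Retnlg is a resistin-like secreted protein that is abundant in rodent neutrophils. Resting microglia are not known as a source of these granule proteins, although activated glia can make Lcn2. Mouse neutrophils carry CD11b and CD45 but little of the macrophage antigen encoded by Adgre1.

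Mice were either Trem2-deficient (knockout, KO) or wild type (WT), Trem2 being a microglial receptor that binds lipids. The genotype label gives Trem2-/- with no restriction to a tissue, and strain, sex and age were not given in the sources used here. Brains were perfused with heparin-containing PBS and digested, myelin was removed, and cells triple positive for CD11b, CD45 and the Adgre1 antigen were sorted. Diets held Covi-Ox (Covi-ox T70 mixed tocopherols, forms of vitamin E, with added alpha tocopherol) at 0.1%, cuprizone (a copper chelator that kills oligodendrocytes) at 0.2%, both, or neither. The array labels give 4 weeks of feeding, and mice on both additives had first eaten Covi-Ox alone for 2 weeks. Control arrays are labelled only as negative control. Of the 12 arrays with Covi-Ox in the title, 3 were KO set A, 3 KO set B, 3 WT both and 3 WT Covi-Ox. Of the 10 arrays without it, 3 were KO cuprizone, 2 KO control, 3 WT cuprizone and 2 WT control. Titles of set A name both additives while its other fields name Covi-Ox alone, and set B has the opposite contradiction. Both readings place Covi-Ox in both sets and cuprizone in 1 of them, so a comparison that pools the sets does not depend on the choice. The labels do not say that replicates came from separate animals or pools, so each p-value reflects spread among these arrays alone. No batch, sort day or scan date was given, so a batch that ran with the diet cannot be told apart from it.

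Array medians lay between 5.17 and 5.27. All 14 microglial markers measured (among them Tmem119, P2ry12, Cx3cr1 and Sall1) lay above the array median on all 22 arrays, with a mean per array of 10.77 to 11.19 on the 12 Covi-Ox arrays and 10.84 to 11.19 on the 10 without. Trem2 was 14.3-fold lower in KO than in WT (log2 difference -3.84 ± 0.06 SE, limma adjusted p = 5.57e-20), with every KO array below every WT array. In 3 arrays without Covi-Ox the mean of 23 immediate-early genes, which respond within minutes to stimulation, was low. It was 9.28 in KO cuprizone 3, 9.24 in KO cuprizone 2 and 8.90 in WT cuprizone 3, against 10.23 to 10.48 on the other arrays. Results are given with and without these 3 arrays where that changed a call.

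Promoter windows of 250 bases before the annotated start were found for 6 of the 8 genes in RefSeq sequence of build GRCm38.p6. The windows of the 4 genes with the most negative Covi-Ox differences are shown, because the C/EBP factors that switch on granule genes bind upstream of them. Capitals mark matches to TTGCNNAA on either strand, a short form of the C/EBP site, and letters run 5′ to 3′ on the gene's strand. S100a8 (chr3:90668821-90669070, plus strand) had no match and S100a9 (chr3:90695722-90695971, minus strand) had 1, which began 236 bases before the start. Ngp (chr9:110419558-110419807, plus strand) had 2, at 138 and 11 bases before the start, and Lcn2 (chr2:32387740-32387989, minus strand) had 1, at 216.
S100a8: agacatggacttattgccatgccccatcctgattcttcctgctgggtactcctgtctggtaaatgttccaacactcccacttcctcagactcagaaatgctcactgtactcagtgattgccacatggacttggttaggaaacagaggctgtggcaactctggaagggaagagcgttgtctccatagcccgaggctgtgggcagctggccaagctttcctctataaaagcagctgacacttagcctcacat
S100a9: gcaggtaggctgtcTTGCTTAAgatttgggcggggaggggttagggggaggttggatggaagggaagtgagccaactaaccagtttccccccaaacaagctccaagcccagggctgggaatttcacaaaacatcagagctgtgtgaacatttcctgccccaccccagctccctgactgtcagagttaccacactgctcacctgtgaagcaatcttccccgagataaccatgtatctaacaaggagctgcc
Ngp: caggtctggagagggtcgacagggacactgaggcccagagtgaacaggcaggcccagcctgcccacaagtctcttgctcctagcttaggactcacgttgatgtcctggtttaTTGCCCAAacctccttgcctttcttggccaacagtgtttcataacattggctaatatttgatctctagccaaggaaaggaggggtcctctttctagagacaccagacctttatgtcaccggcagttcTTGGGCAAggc
Lcn2: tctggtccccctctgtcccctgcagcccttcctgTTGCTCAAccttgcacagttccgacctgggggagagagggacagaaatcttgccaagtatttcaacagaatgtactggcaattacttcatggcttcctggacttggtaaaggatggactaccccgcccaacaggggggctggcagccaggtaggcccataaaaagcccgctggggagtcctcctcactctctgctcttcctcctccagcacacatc
Retnlg also held a match, 246 bases before its start, and Camp held none. The motif was therefore present in 4 of these 6 windows, while 9.56% of 32851 promoter windows of the same length held it. The PU.1 core AGGAAG was found in the windows of Lcn2, S100a8 and Camp, and in 29.5% of all windows. The AP-1 site TGANTCA was found in none of the 6, and in 6.75% of all windows. A match of letters is a description of the sequence and not a measured binding site.

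With Covi-Ox in the diet the calprotectin genes were at a small part of their level without it, in both genotypes. S100a8 had a lowest, median and highest level of 3.87, 6.08 and 8.25 on the 12 Covi-Ox arrays, against 8.01, 9.69 and 10.47 on the 10 arrays without. The only overlap came from KO set B 2, which lay above WT cuprizone 3, the lowest array without Covi-Ox. The averaged group means differed by -3.74 ± 0.33 (SE, limma adjusted p = 7.35e-06), 13.4-fold lower with Covi-Ox, and S100a8 had the most negative difference of all 11830 genes. S100a9 ran at 4.63, 6.54 and 8.08 with Covi-Ox, against 8.03, 9.90 and 10.61 without, with the same pair of arrays overlapping. It was 10.9-fold lower (-3.45 ± 0.34, adjusted p = 1.69e-05). On the Covi-Ox arrays S100a8 lay below the array median on 5 of 12 and S100a9 on 3 of 12, and on no array without Covi-Ox did either gene fall below it. The arrays carry no detection call, so a value below the array median was read as little signal, and folds were also computed with such values set to that median. S100a8 was then 11.2-fold and S100a9 10.3-fold lower.

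The secondary granule genes Ngp, Lcn2 and Camp were lower with Covi-Ox as well. Ngp had a lowest, median and highest level of 4.22, 4.63 and 5.42 with Covi-Ox, against 4.98, 6.71 and 7.77 without, and was 3.59-fold lower (-1.84 ± 0.24, limma adjusted p = 7.04e-04). Lcn2 ran at 4.19, 4.64 and 5.07 with Covi-Ox, against 4.67, 6.35 and 7.26 without, with a fitted difference of -1.43 ± 0.24 (adjusted p = 0.00456). Camp ran at 4.98, 5.29 and 5.80 with Covi-Ox, against 5.17, 6.81 and 7.66 without, and was 2.61-fold lower (-1.39 ± 0.21, adjusted p = 0.00248). For these 3 genes the groups overlapped, since WT cuprizone 3 lay within the Covi-Ox range for all of them and KO cuprizone 3 did for Camp and Lcn2. Lcn2 was below the array median on all 12 Covi-Ox arrays and on 2 of 10 without, and Ngp on 11 of 12 and on 1 of 10. With values below an array's median set to that median, Lcn2 was 1.93-fold, Ngp 2.49-fold and Camp 2.56-fold lower. Low values on arrays without Covi-Ox were raised as well, so these folds are not lower bounds. Lcn2 passed the filter only through arrays without Covi-Ox and Ngp mainly so, and the count of called members was the same with no filter.

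Retnlg, Hp and Mmp9 differed less. Retnlg had a lowest, median and highest level of 4.26, 4.76 and 6.26 with Covi-Ox, against 4.58, 5.88 and 6.80 without (-0.995 ± 0.21, 1.99-fold lower, limma adjusted p = 0.0241). Hp ran at 4.76, 5.12 and 5.60 with Covi-Ox, against 5.18, 5.56 and 6.06 without (-0.47 ± 0.10, 1.39-fold lower, adjusted p = 0.0217). Groups overlapped widely for both, and each lay below the array median on 8 of 12 Covi-Ox arrays. With values below an array's median set to that median, Retnlg was 1.56-fold and Hp 1.25-fold lower. Mmp9 ran at 4.64, 5.12 and 5.35 with Covi-Ox, against 4.74, 5.16 and 5.38 without, a difference of -0.07 ± 0.08 (adjusted p = 0.770). It lay below the array median on 9 of 12 Covi-Ox arrays and on 6 of 10 without, so its probe set gave little signal to compare.

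In all, 7 of the 8 members were called lower with Covi-Ox and none higher, where 0.38% of all genes tested were called lower and 0.837% higher. The median difference of the 8 was -1.41, against -0.00195 over all genes tested. S100a8, S100a9, Ngp, Lcn2, Camp and Retnlg, in this order, held the 6 most negative differences of all genes tested, and Hp was 29th. The members were chosen with earlier results of these data known. These counts and ranks, and the member counts below, therefore describe the set and are not an independent test of it. S100a8, S100a9, Ngp, Camp and Lcn2 passed the threshold with each of the 22 arrays left out in turn. Retnlg missed it without WT control 1, WT control 2 or KO control 2, with adjusted p from 0.0550 to 0.0922, and Hp without WT control 2 or KO control 2, at 0.0902 and 0.0589. In whole sorted samples, fewer cells that carry these transcripts and less of the transcripts per cell cannot be told apart.

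**Figure D1:**
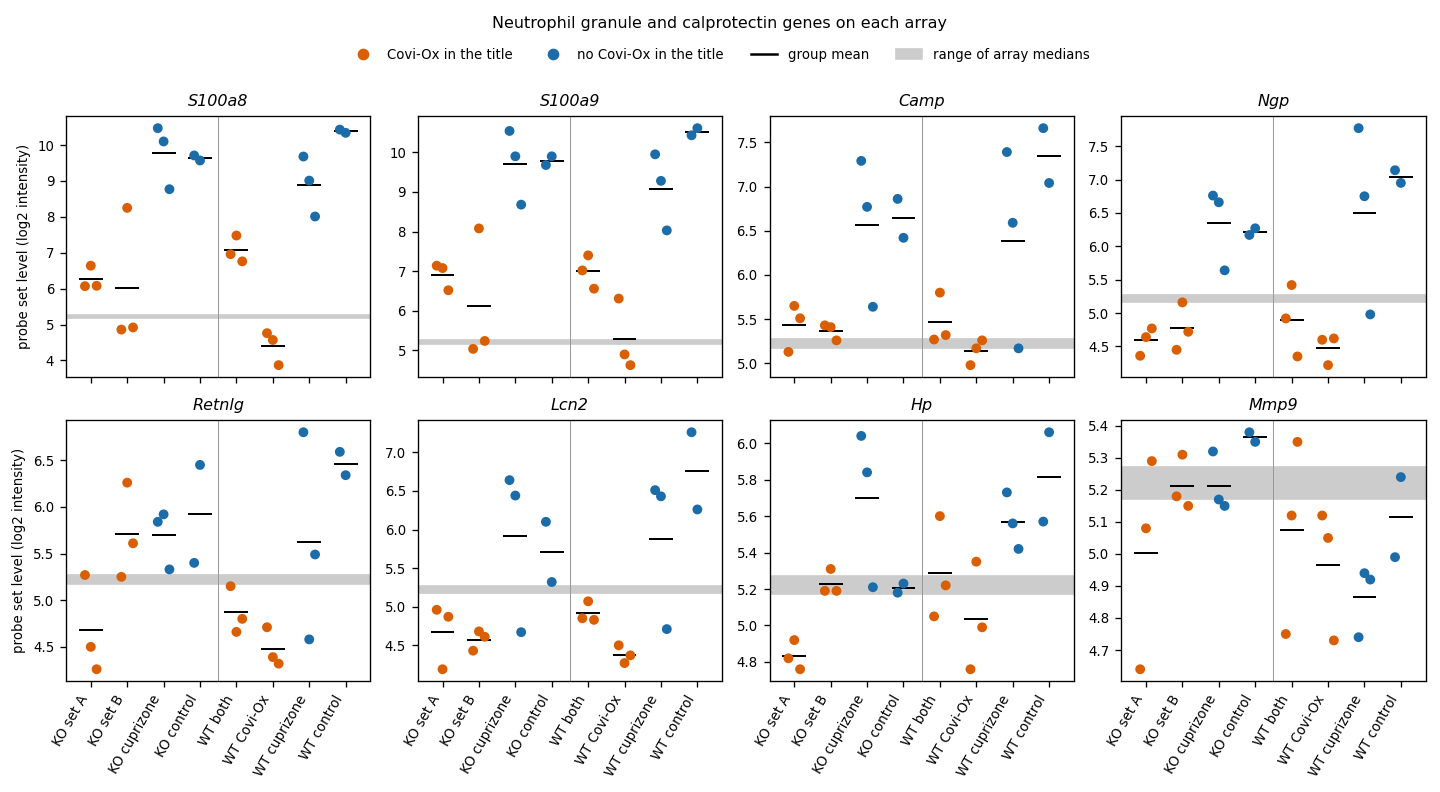
Level of each of the 8 genes on every array (log2 intensity, vertical axis) by group (horizontal axis), with KO groups left and WT groups right of the grey line. Points are arrays, black bars are group means and the grey band spans the array medians of 5.17 to 5.27; S100a8 and S100a9 are low on all Covi-Ox arrays except KO set B 2, and Mmp9 stays near the band throughout.

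The question whether the difference depends on Trem2 was asked by testing each genotype by itself. In KO microglia S100a8 averaged 6.14 over set A and set B, against 9.71 over cuprizone and control, 11.9-fold lower (-3.57 ± 0.47, limma adjusted p = 0.00388). Values were 6.07, 6.64 and 6.08 in KO set A and 4.86, 8.25 and 4.92 in KO set B, against 10.47, 10.10 and 8.77 in KO cuprizone and 9.71 and 9.57 in KO control. All 6 Covi-Ox arrays of the KO lay below the 5 without, with set B 2 nearest to KO cuprizone 3. S100a9 was 7.14, 7.08 and 6.52 in KO set A and 5.04, 8.08 and 5.24 in KO set B, against 10.54, 9.90 and 8.68 in KO cuprizone and 9.68 and 9.90 in KO control. It was 9.40-fold lower (-3.23 ± 0.48, adjusted p = 0.00938), again without overlap. S100a8 lay below the array median on 2 of the 6 Covi-Ox arrays of the KO and S100a9 on 1. Ngp did not overlap either, with 4.36 to 5.16 on the 6 Covi-Ox arrays against 5.64 to 6.76 on the 5 without, but missed the threshold (-1.60 ± 0.34, adjusted p = 0.0674). It lay below the array median on 6 of 6 Covi-Ox arrays, and with these values set to that median the difference was -1.07. Camp (-1.20, adjusted p = 0.101), Lcn2 (-1.19, 0.152), Hp (-0.42, 0.231), Retnlg (-0.62, 0.431) and Mmp9 (-0.18, 0.562) did not pass.

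In the KO, 2 of 8 members were called lower, against 0.0507% of all genes tested, and 3 of 8 did not overlap, against 0.44%. The KO count depended on single arrays. It was 1 without KO control 2, where S100a9 had an adjusted p of 0.0896, and 5 without KO cuprizone 3, with Camp, Ngp and Lcn2 added. It was also 5 without the 3 arrays low in immediate-early genes. When the model held only the 11 KO arrays, S100a8 and S100a9 each had an adjusted p of 0.0562 and Ngp one of 0.0282. Ngp also passed in the full model without KO cuprizone 1 (-1.50, adjusted p = 0.0464).

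In WT microglia S100a8 was 15.0-fold lower with Covi-Ox (-3.91 ± 0.47, limma adjusted p = 4.98e-04). It was 6.96, 7.48 and 6.76 in WT both and 4.76, 4.57 and 3.87 in WT Covi-Ox, against 9.68, 9.01 and 8.01 in WT cuprizone and 10.43 and 10.34 in WT control. S100a9 was 7.02, 7.40 and 6.56 in WT both and 6.31, 4.90 and 4.63 in WT Covi-Ox, against 9.95, 9.28 and 8.03 in WT cuprizone and 10.43 and 10.61 in WT control. It was 12.7-fold lower (-3.67 ± 0.48, adjusted p = 0.00102), and neither gene overlapped between Covi-Ox arrays and the others. S100a8 lay below the array median on 3 of the 6 WT Covi-Ox and WT both arrays and S100a9 on 2, all of them WT Covi-Ox arrays. Ngp (-2.09 ± 0.34, adjusted p = 0.0128), Camp (-1.57 ± 0.30, 0.0351) and Lcn2 (-1.67 ± 0.33, 0.0381) were also called lower, each overlapping through WT cuprizone 3. Lcn2 lay below the array median on 6 of these 6 Covi-Ox arrays, Ngp on 5 and Camp on 2. With values below an array's median set to that median, the differences were -1.57 for Ngp, -1.53 for Camp and -1.20 for Lcn2. Retnlg (-1.37, adjusted p = 0.0650), Hp (-0.53, 0.168) and Mmp9 (0.03, 0.967) did not pass. However, Hp did without the 3 arrays low in immediate-early genes (-0.57, 0.0338), and Retnlg did without WT cuprizone 2 (-1.63, 0.0151).

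In WT, 5 of 8 members were called lower, against 0.127% of all genes tested, and 2 of 8 did not overlap, against 0.38%. S100a8 and S100a9 passed with each of the 11 WT arrays left out. Camp and Lcn2 passed in 1 of these 11 fits, the one without WT cuprizone 3, and Ngp in 7. The count was 2 without WT control 1, WT control 2, WT Covi-Ox 2 or WT both 3, and 2 when the model held only the WT arrays, where Camp, Ngp and Lcn2 had adjusted p of 0.0965, 0.0905 and 0.0635.

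The difference between genotypes was itself tested and not called for any member. For S100a8 the Covi-Ox difference was 0.34 ± 0.67 less negative in KO than in WT (limma adjusted p = 0.934), for S100a9 0.43 ± 0.68 (0.918), for Ngp 0.48 ± 0.48 (0.865) and for Retnlg 0.75 ± 0.42 (0.777). None of the 8 had an unadjusted p under 0.05, which 6.58% of all genes had, and 0.00845% of all genes were called. With standard errors of 0.67 and 0.68 for the calprotectin genes, a genotype difference of that size was not detectable in these arrays. Without KO set B 2 the S100a8 value turned to -0.22 and that of S100a9 to -0.06.

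**Figure D2:**
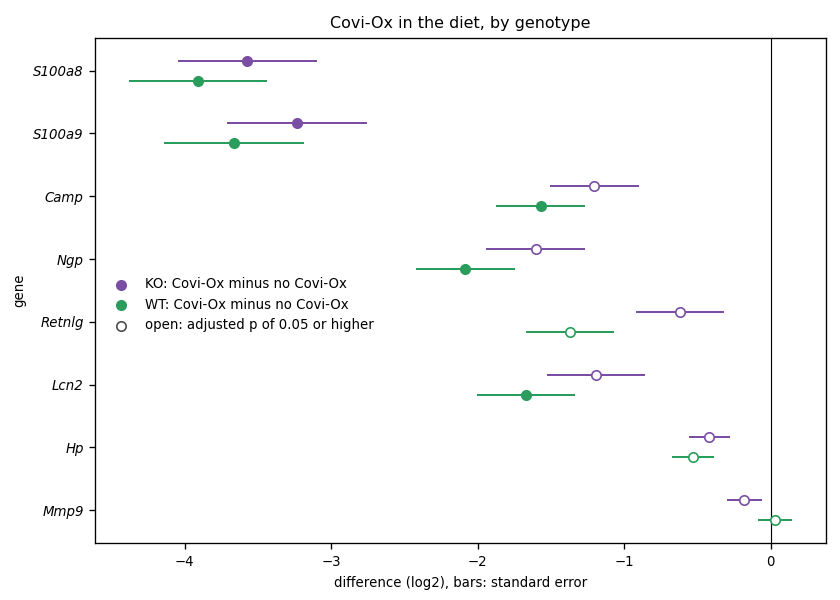
Difference between arrays with and without Covi-Ox for each gene (log2, horizontal axis), in KO and in WT. Points are limma estimates and bars their standard errors, filled where the adjusted p was under 0.05; S100a8 and S100a9 lie between -3.91 and -3.23 in both genotypes, while Mmp9 lies near 0.

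Within WT the diets could be separated, since their labels agree. Without cuprizone, Covi-Ox against control gave the largest differences: S100a8 averaged 4.40 ± 0.47 in WT Covi-Ox (SD, n = 3) and 10.39 ± 0.06 in WT control (SD, n = 2). The fitted difference was -5.99 ± 0.70 SE (limma adjusted p = 3.32e-04). All 3 WT Covi-Ox arrays had S100a8 below the array median, and against that median it was at least 36.4-fold lower. S100a9 averaged 5.28 ± 0.90 in WT Covi-Ox and 10.52 ± 0.13 in WT control, a difference of -5.24 ± 0.71 SE (adjusted p = 0.00190). It lay below the array median on 2 of the 3 WT Covi-Ox arrays, and was 30.7-fold lower with these 2 set to that median. These were the only genes called lower in this comparison, 0.0169% of those tested. Camp (-2.22), Ngp (-2.57) and Lcn2 (-2.38) each had an adjusted p of 0.0834, Retnlg (-1.99) one of 0.111 and Hp (-0.78) one of 0.274. Ngp, Lcn2 and Retnlg lay below the array median on 3 of 3 WT Covi-Ox arrays, and Camp and Hp on 2 of 3. With such values set to that median the differences were -2.13 for Camp, -1.84 for Ngp, -1.56 for Lcn2, -1.26 for Retnlg and -0.57 for Hp. Every member but Mmp9 had all 3 WT Covi-Ox arrays below both control arrays, as did 14.8% of all genes tested. S100a9 missed the threshold without WT control 1 or WT control 2 (adjusted p = 0.0552 and 0.0998), and 6 members passed when the model held only these 5 arrays.

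Among mice that ate cuprizone the Covi-Ox difference was smaller, and no member was called. S100a8 averaged 7.07 ± 0.37 in WT both and 8.90 ± 0.84 in WT cuprizone (SD, n = 3 each), a difference of -1.84 ± 0.63 SE (limma adjusted p = 0.363). S100a9 averaged 6.99 ± 0.42 in WT both and 9.09 ± 0.97 in WT cuprizone (-2.09 ± 0.64 SE, adjusted p = 0.263). Both genes had all WT both arrays below all WT cuprizone arrays, as did 8.4% of genes tested. Ngp had the lowest p of the 8 (-1.60 ± 0.45, adjusted p = 0.208). In addition, 5 members had an unadjusted p under 0.05 and were lower, against 4.75% of all genes, and 0.0423% of genes were called lower. Without WT cuprizone 3, Camp (-1.53, adjusted p = 0.0347) and Ngp (-2.36, 5.58e-04) passed, and without all 3 low immediate-early arrays Lcn2 did too (-1.55, 0.00538).

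The same groups compare diets with and without cuprizone, on Covi-Ox and off it. The labels give 2 weeks of Covi-Ox before cuprizone for WT both and no such lead-in for WT Covi-Ox. On Covi-Ox, cuprizone and the longer Covi-Ox feeding therefore cannot be told apart. S100a8 was higher in WT both, where it averaged 7.07, against 4.40 in WT Covi-Ox (difference 2.66 ± 0.63 SE, limma adjusted p = 0.0111). Since S100a8 was below the array median on all 3 WT Covi-Ox arrays, it was at least 3.64-fold higher when set against that median. S100a9 differed by 1.71 ± 0.64 SE (adjusted p = 0.114), with 2 of the 3 WT Covi-Ox arrays below the median. S100a8, S100a9, Camp and Lcn2 had every WT both array above every WT Covi-Ox array, as did 13.1% of all genes. Lcn2 lay below the array median on 3 of 3 arrays of either group, and Camp on 2 of 3 WT Covi-Ox arrays. Only 1 of 8 members was called higher, against 4.65% of all genes, and a single call is not a result about the set. S100a8 missed the threshold without WT Covi-Ox 3 (2.40, adjusted p = 0.0569) or WT both 2 (2.46, 0.0578). The 6 Covi-Ox arrays of WT did not hold S100a8 as high as any of the 5 arrays without Covi-Ox.

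Without Covi-Ox, cuprizone moved no member past the threshold. S100a8 averaged 8.90 ± 0.84 in WT cuprizone (n = 3) and 10.39 ± 0.06 in WT control (SD, n = 2; -1.48 ± 0.70 SE, limma adjusted p = 0.294). S100a9 differed by -1.43 ± 0.71 (adjusted p = 0.321) and Camp by -0.97 ± 0.45 (0.284). S100a8, S100a9 and Mmp9 had all cuprizone arrays below both control arrays, as did 17.6% of genes tested. An unadjusted p under 0.05 was reached by 2 members, against 16.7% of all genes, while 2.5% of genes were called. Without WT cuprizone 1, Retnlg passed (-1.43, adjusted p = 0.0407). The test of whether the Covi-Ox difference changed with cuprizone gave 4.15 ± 0.95 for S100a8 (unadjusted p = 3.00e-04, adjusted 0.189) and 3.14 ± 0.95 for S100a9 (adjusted p = 0.517). No member was called, against 0.0254% of all genes, and 4 had an unadjusted p under 0.05, against 6.64%. However, with only the 11 WT arrays in the model S100a8 passed (adjusted p = 0.0298). The 2 weeks of Covi-Ox before cuprizone in WT both enter this test too.

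In the KO, cuprizone against control gave no call and no common direction. S100a8 averaged 9.78 ± 0.89 in KO cuprizone (n = 3) and 9.64 ± 0.10 in KO control (SD, n = 2), a difference of 0.14 ± 0.70 SE (limma adjusted p = 0.961). S100a9 differed by -0.08 ± 0.71 (adjusted p = 0.975). Of the 8 differences 4 were below 0. Hp alone had an unadjusted p under 0.05 (0.49 ± 0.21, adjusted p = 0.324), as did 13.4% of all genes, and 0.0423% of all genes were called. The cuprizone difference was not called as different between KO and WT for any member (S100a8 1.63 ± 1.00, adjusted p = 0.623), where 0.228% of all genes were called. In that test 1 member, Hp, had an unadjusted p under 0.05, as did 10.1% of all genes. Averaged over diets, KO differed from WT by 0.23 ± 0.33 for S100a8 (adjusted p = 0.713) and 0.16 ± 0.34 for S100a9 (0.807). Mmp9 was the 1 member with an unadjusted p under 0.05 (0.19 ± 0.08, adjusted p = 0.177), as had 22.6% of all genes. No member was called between genotypes, while 6.37% of all genes were.

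Because the labels of sets A and B contradict each other, their values are given side by side without a test between them. S100a8 was 6.07 to 6.64 in KO set A and spread from 4.86 to 8.25 in KO set B. Retnlg was 5.27, 4.50 and 4.26 in KO set A and 5.25, 6.26 and 5.61 in KO set B. The set B values lie within the 5.33 to 6.45 of KO cuprizone and KO control except for its lowest array. Hp was 4.76 to 4.92 in KO set A and 5.19 to 5.31 in KO set B. Camp, Ngp and Lcn2 were low in both sets, with means of 5.43, 4.59 and 4.67 in set A and 5.37, 4.78 and 4.57 in set B.

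Single arrays stood apart within their groups across the members. KO set B 2 was the highest of its group for 7 of 8 members, all except Camp. For Ngp it had 5.16, against 4.45 and 4.72 in the other 2 arrays of the set, a much smaller gap than for S100a8. WT cuprizone 3 was the lowest of its group for 6 of 8 members and KO cuprizone 3 for all 8. Both are also low in immediate-early genes, but KO cuprizone 2, low in those genes too, was the lowest of its group for none of the 8. The part of sample handling in these values was not tested. KO cuprizone 1 and WT cuprizone 1 were each the highest of their group for 7 of 8.

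Across arrays the members moved together, apart from Mmp9. S100a8 and S100a9 had a Pearson r of 0.98 over the 22 arrays, and 0.94 after each group's mean was removed. Camp and Ngp had 0.95 and 0.88 on these scales, and Camp and Lcn2 0.94 and 0.84. Over the 21 pairs of the 7 genes other than Mmp9, r ran from 0.57 to 0.98 with a median of 0.76, and within groups from 0.15 to 0.94 with a median of 0.49. Mmp9 had r of 0.06 to 0.26 with the other 7. These correlations are descriptions of arrays that share the diet difference and are given without a p. S100a8 and Camp (0.85 over arrays, 0.52 within groups) parted on KO set B 2, which was high in S100a8 (8.25) and had 5.41 for Camp.

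**Figure D3:**
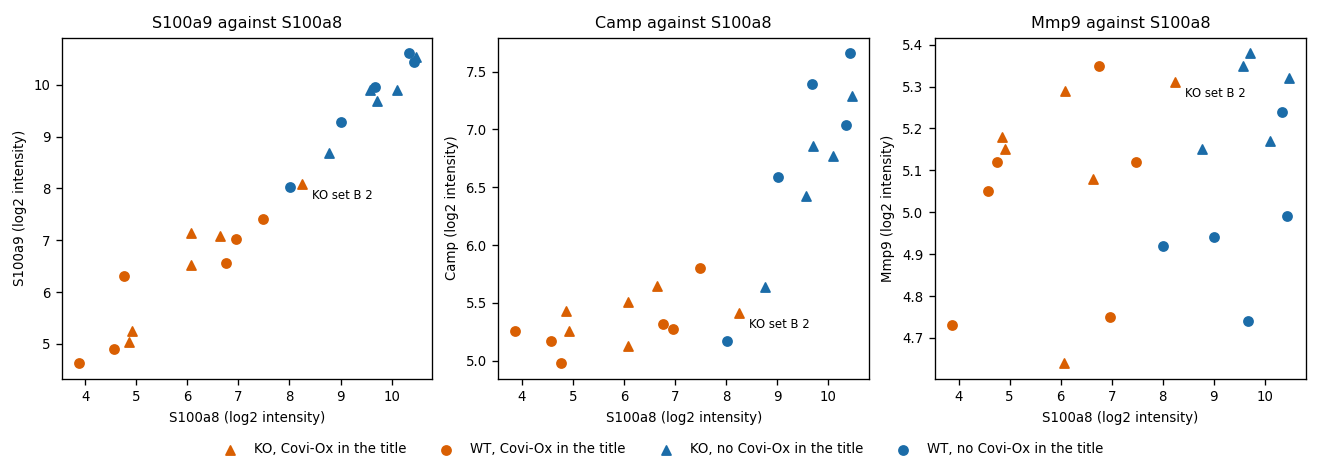
S100a9, Camp and Mmp9 (vertical axes) against S100a8 (horizontal axis), all in log2 intensity, 1 point per array. Triangles are KO and circles WT, orange with Covi-Ox in the title and blue without; S100a9 follows S100a8 closely, Camp stays near 5 except on arrays high in S100a8, and Mmp9 scatters (r = 0.26).

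The genes whose pattern was most like the mean of the 8 over the 22 arrays were Pglyrp1 (r = 0.80), S100a11 (0.80), Ttc32 (0.78), Chil3 (0.74), Ltbr (0.74), Creb3l3 (0.73), Tmub2 (0.70), Ifitm6 (0.70), St7l (0.69) and Spcs3 (0.69). Pglyrp1, a peptidoglycan-binding granule protein, Chil3, a chitinase-like protein of neutrophils and monocytes, and Ifitm6 belong to the neutrophil lists, while the other 7 do not. After group means were removed the 10 nearest were Snx4 (0.85), Filip1l (0.84), Sh2b3 (0.82), Nfe2l2 (0.81), Sgf29 (0.80), Prkcd (0.80), Sptan1 (0.78), Lcp2 (0.78), Nr1d1 (0.78) and Asb7 (0.77). No gene stood in both sets of 10.

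Many other neutrophil genes gave little signal on these arrays. Of 39 further neutrophil genes with a probe set of their own, 18 passed the filter, where 11830 of all 19937 genes did. Passing were 2 of 7 primary granule genes, 11 of 15 secondary and tertiary granule genes and 5 of 17 surface and mature neutrophil genes. Of the 39, 18 lay below the array median on every array. Those below on every array included the surface markers that define neutrophils, Ly6g (2.86 to 3.83 over all arrays) and Cxcr2 (2.35 to 3.69), and the primary granule proteases Elane (4.61 to 5.24), Prtn3 (4.53 to 5.12) and Ctsg (3.25 to 3.99), as well as the collagenase Mmp8 (2.87 to 4.75). Ltf, lactoferrin of the secondary granules, lay above the median on 0 of 12 Covi-Ox arrays and on 1 of 10 without. Mpo, the myeloperoxidase of primary granules, did so on 4 of 12 and 6 of 10. Csf3r, the receptor for granulocyte colony-stimulating factor, which microglia also express, was high throughout, at 9.03 to 9.44 with Covi-Ox and 8.79 to 9.24 without. A low array signal does not show that a transcript is absent.

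Of the 39 further genes 3 were called lower with Covi-Ox and none higher when all 19937 genes were tested with no filter, where 0.171% of genes were called lower, and the same 3 were called among the 18 that passed it. Pglyrp1 had a lowest, median and highest level of 4.76, 4.99 and 5.33 with Covi-Ox, against 5.09, 5.46 and 5.79 without (-0.46 ± 0.07, limma adjusted p = 0.00248). Chil3 ran at 3.55, 4.09 and 5.15 with Covi-Ox, against 3.74, 5.01 and 5.66 without (-0.75 ± 0.17, adjusted p = 0.0342). Ifitm6 ran at 3.89, 4.20 and 4.67 with Covi-Ox, against 3.96, 4.89 and 5.46 without (-0.59 ± 0.13, adjusted p = 0.0242). All 3 overlapped between the groups and lay near or below the array median. Pglyrp1 was above it on 1 of 12 Covi-Ox arrays and 9 of 10 without, Chil3 on 0 and 4, and Ifitm6 on 0 and 3, so Chil3 and Ifitm6 passed the filter through arrays without Covi-Ox alone and Pglyrp1 mainly so. With no filter their adjusted p were 0.00313 for Pglyrp1, 0.0433 for Chil3 and 0.0316 for Ifitm6. Pglyrp1 (-0.63 ± 0.10, adjusted p = 0.0111) and Ifitm6 (-0.91 ± 0.18, 0.0371) were also called in WT alone, and none of the 18 in KO alone. The mean of the 39 genes per array was 4.93 to 5.16 with Covi-Ox and 5.07 to 5.25 without. Their summed intensity was 4858 to 7003 with Covi-Ox and 5068 to 7333 without, sums to which Lyz2, Itgam and Cyba, also expressed by microglia, contribute. The part of other cells in the sorted samples was not tested beyond these values.

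**Figure D4:**
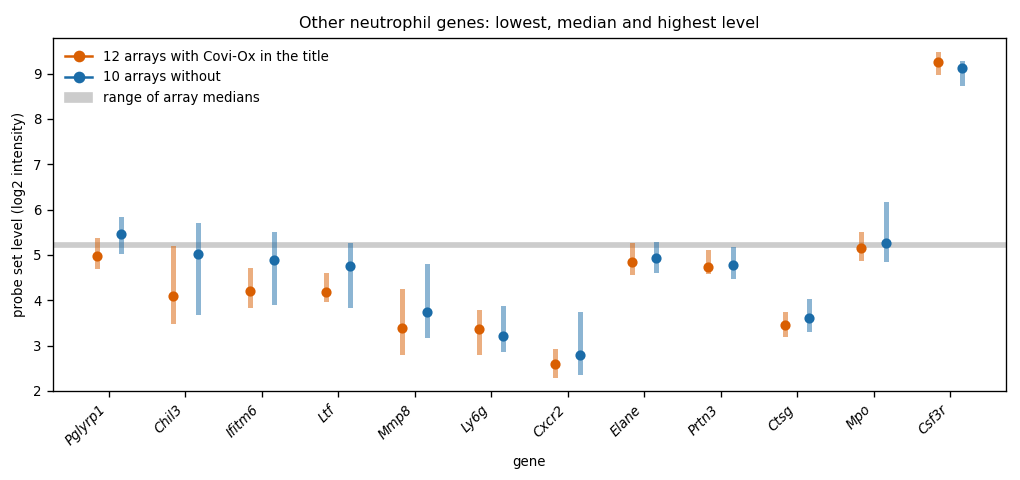
Lowest, median and highest level (log2 intensity, vertical axis) of 12 other neutrophil genes over the 12 Covi-Ox arrays and the 10 arrays without. Bars span the range, points are medians and the grey band spans the array medians; Ly6g, Cxcr2, Mmp8 and Ctsg lie below the band on every array, and Csf3r lies far above it.

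Of genes in the members' pathways Cebpd, S100a11 and Cd44 were called with Covi-Ox, where 0.38% of all genes tested were called lower and 0.837% higher. A single call in a list is not a result about that list. Of 9 granule transcription factors tested, Cebpd alone was called, lower by -0.45 ± 0.08 (limma adjusted p = 0.00778), and Spi1, which encodes PU.1, differed by -0.01 ± 0.04. Of 8 other S100 genes S100a11 was called lower (-0.51 ± 0.10, adjusted p = 0.0118), with 7.69, 7.91 and 8.41 with Covi-Ox, against 7.97, 8.57 and 8.90 without. S100a6 had the largest difference of that family (-0.60 ± 0.20) but an adjusted p of 0.153. None of 9 calprotectin receptors and binding partners was called. Cd14, the co-receptor of Tlr4, differed by 0.23 ± 0.09 (adjusted p = 0.247), and Tlr4 by -0.17 ± 0.05 (0.141). Neither of 2 lipocalin and resistin receptors tested was called (Cap1 0.17 ± 0.04, adjusted p = 0.0644), nor any of 5 haptoglobin partners, among them the haemoglobin scavenger receptor Cd163 (-0.13 ± 0.15, 0.768). Of 5 partners of Mmp9, Cd44, a hyaluronan receptor, was called higher (0.33 ± 0.07, adjusted p = 0.0342). It was not called in KO or WT alone. In WT it averaged 7.04 in WT both against 6.06 in WT cuprizone (0.99 ± 0.14, adjusted p = 0.00253). Without cuprizone it averaged 5.03 in WT Covi-Ox and 5.04 in WT control. None of 7 neutrophil chemoattractant genes was called, with Il1b at 1.44 ± 0.42 (adjusted p = 0.100) and Cxcl2 at 1.23 ± 0.46 (0.231).

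Of markers of other cells Chil3 and Ccl5 were called with Covi-Ox, where 0.38% of all genes tested were called lower and 0.837% higher. None was called among the B cell, erythroid, platelet, endothelial, astrocyte, oligodendrocyte, neuron and border macrophage genes tested. Of 7 monocyte genes Chil3 alone was called lower, and it also stands in the neutrophil list. Of 2 T and NK cell genes tested the chemokine Ccl5, which microglia can also make, was called higher (0.92 ± 0.17, limma adjusted p = 0.00952). Ptprc, which encodes CD45, was the 1 of 14 microglial genes called (0.21 ± 0.05, adjusted p = 0.0339), and Socs3 the 1 of 23 immediate-early genes (0.57 ± 0.14, 0.0492). In WT both against WT Covi-Ox, where S100a8 was higher, 3.17% of all genes were called lower and 4.65% higher. There, 8 of 14 microglial genes were called lower, among them Tmem119 (-0.61 ± 0.09, adjusted p = 2.30e-04) and Siglech (-0.68 ± 0.09, 8.75e-05). In the same comparison 3 of 7 monocyte genes were higher, led by fibronectin, Fn1 (4.71 ± 0.48, adjusted p = 2.73e-06). So were 3 of 11 secondary and tertiary granule genes, Cyba, Cybb and Lyz1. Fn1 (2.90 ± 0.54) and Cybb (1.24 ± 0.22) were also called higher in WT cuprizone against WT control, with 2.5% of all genes called. Both were called lower in KO than in WT, where 6.37% of all genes were called. In WT both against WT Covi-Ox, Gp9 and Pf4 (platelet), Cd163, Mrc1 and Pf4 (border macrophage) and Slc1a3 (astrocyte) were called lower. Of endothelial genes there, Flt1 was called higher and Pecam1 lower. None of the granule transcription factor, neutrophil chemoattractant, B cell, erythroid, oligodendrocyte, neuron or immediate-early genes tested was called in that comparison. Of the calprotectin receptors Alcam (1.35 ± 0.14) and Bsg (0.44 ± 0.11) were higher and Cd33 (-0.54 ± 0.09) lower, all 3 called.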

How the data were processed

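The authors deposited linear intensity values per probe set for 22 Affymetrix mouse gene arrays, normalized between arrays with RMA per the submitters' processing notes, with version and array build not given in the sources used here. RMA forces like distributions on all arrays, so a change in total RNA cannot be seen. Of 28098 probe sets, 21640 map to a single gene in the platform table; 2 missing cells were left out. The log2 of intensity was taken, each gene was represented by its single-gene probe set with the highest mean, and a gene was kept if 2 or more arrays had it above their 50th percentile. For arrays, their number limits the precision. Folds against values below an array's median were also taken with those values set to that median, a choice made after seeing the data.

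The limma package (3.58.1, R 4.3.3) fitted a model of 8 group means (14 residual degrees of freedom, prior 5.49) with Benjamini-Hochberg adjustment over the 11830 genes. Tests are two-sided, calls needed an adjusted p under 0.05, and errors are standard errors unless SD is named. The fit was run on simulated data with independent noise for each gene and array and planted Covi-Ox differences. Those data held no batch and no genes that vary together, so they do not test the fit under these conditions. The members, gene lists and tests were chosen with earlier results of these data known. Named are the 8 members and Trem2, up to 4 called genes of a list, the member of a described list with the highest level or largest Covi-Ox difference, and the 10 genes most like the members' mean. Ly6g, Cxcr2 and other defining markers were named as such.

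Alternative settings were a replicate block, a fit of only the arrays compared, no filter and a 75th percentile filter, quantile normalization, median centring, the mean of a gene's probe sets, trend and robust options, array weights, a pseudocount of 16, a stricter adjusted p of 0.01, and each array left out in turn. Leaving out the 3 arrays low in immediate-early genes was chosen after seeing the data.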

Additional observations from a re-analysis of the deposited data

How the results depend on the processing

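The counts of called members were within 1.5 times their reported values in 244 of 275 refits. Refits of comparisons with no called member in either fit are among these. The share therefore says little about comparisons that had calls. Where the fit held only the arrays compared, the count was 2 for Covi-Ox in WT, 1 for Covi-Ox in KO, 6 for Covi-Ox against control in WT, 3 for cuprizone on Covi-Ox in WT and 1 for the change of the Covi-Ox difference with cuprizone. With the 75th percentile filter it was 4 for Covi-Ox over all arrays, where fewer genes are tested. Trend and robust options gave 3 for Covi-Ox in WT. Array weights gave 6 for Covi-Ox against control in WT, 3 for Covi-Ox on cuprizone in WT and 2 for cuprizone on Covi-Ox in WT. At an adjusted p under 0.01 the counts were 2 for Covi-Ox in WT and 0 for cuprizone on Covi-Ox in WT. Without the 3 arrays low in immediate-early genes they were 5 for Covi-Ox in KO and 3 for Covi-Ox on cuprizone in WT. Leaving out 1 array at a time gave 5 to 7 called members for Covi-Ox over all arrays, 2 to 5 in WT, 1 to 5 in KO, 1 to 2 for Covi-Ox against control in WT, 0 to 2 for Covi-Ox on cuprizone, 0 to 1 for cuprizone against control in WT and 0 to 1 for cuprizone on Covi-Ox. The causes were not tested. Signs turned only for differences that were not called. With the replicate block cuprizone in KO gave 0.29 for S100a9 and 0.10 for Camp, and array weights gave 0.053 for Ngp with cuprizone in WT. Without the 3 arrays the values were -0.024 for Hp in the genotype difference of the Covi-Ox effect, 0.21 for Ngp with cuprizone in WT, and 0.75 for S100a9 and 0.65 for Camp with cuprizone in KO. With 1 array left out the genotype difference of the Covi-Ox effect ran from -0.012 to 0.23 for Hp, -0.22 to 0.62 for S100a8 and -0.056 to 0.70 for S100a9, and the Covi-Ox difference of Mmp9 in WT from -0.037 to 0.11. Likewise cuprizone in KO ran from -0.44 to 0.39 for Camp, -0.19 to 0.83 for Lcn2, -0.070 to 0.49 for Ngp, -0.75 to 0.29 for Retnlg, -0.20 to 0.65 for S100a8 and -0.50 to 0.43 for S100a9. Cuprizone in WT ran from -0.48 to 0.0044 for Hp and -1.18 to 0.21 for Ngp, and cuprizone on Covi-Ox from -0.032 to 0.27 for Mmp9. The genotype difference of the cuprizone effect ran from -0.031 to 0.23 for Mmp9 and -0.080 to 1.31 for Ngp. KO against WT ran from -0.24 to 0.041 for Camp, -0.048 to 0.38 for S100a8 and -0.082 to 0.30 for S100a9. The count of all genes called for Covi-Ox over all arrays was 144, with 104 to 252 under the other settings and 57 to 529 with 1 array left out, so the background shares given in the text move too. The replicate block left every count of called members as it was. Same-numbered arrays shared only a number: of 71 such pairs 3 had a correlation of deviations over 0.1 (range -0.227 to 0.254), and 6 of 22 arrays correlated best with their own number. Signals near or below the array median limit what can be said of Ngp, Retnlg, Lcn2, Hp and Mmp9.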
